A study of Mus musculus with 4 samples.

Results

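Translation initiation factors (Eif genes) and elongation factors (Eef genes) were followed in dendritic cells (DCs) and T cells taken from mouse tumours after treatment with X-rays and a prodrug. A gene belonged to the family when its listed symbol began with Eif or Eef, the Eif2ak kinases being left out, and when at least 1 of 4 libraries held 20 or more read counts for it. Of 84 listed genes with such a symbol, 61 met this threshold, among 21959 genes listed in all and 11987 genes that met the same threshold. The member with the lowest maximum was Eif3j2 with 26 counts, and the highest maximum below the threshold was 4 counts, for Eef1akmt3. Of the 23 genes below it, 21 had 0 counts in all 4 libraries. They included 16 numbered copies of Eif1ad, and Eef1a2, Eif4e1b, Eif4ebp3, Eif4a3l1 and Eif2s3y. Membership rests on the symbol alone, so the family also holds enzymes that modify a factor, such as the kinase Eef2k, and the exon junction helicase Eif4a3.

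The cells came from mice bearing tumours of MC38, a mouse colon carcinoma line. DCs and CD3+ T cells were isolated from the tumours of mice that received X-Ray+O-IMDQ, in which O-IMDQ is a prodrug that radiotherapy activates, and of mice that received PBS, 72 h after the second treatment. Each of the 4 groups, X-Ray+O-IMDQ DCs, PBS DCs, X-Ray+O-IMDQ T cells and PBS T cells, is represented by 1 library. No group received X-rays alone or O-IMDQ alone among the samples analysed here, and the labels state no strain, age, sorting gate or number of animals per library.

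Protein synthesis starts when eIF2, loaded with GTP and the initiator tRNA, joins the small ribosomal subunit together with eIF1, eIF1A, eIF3 and eIF5. The eIF4F complex, made of a cap-binding protein, a helicase and a scaffold, brings this assembly to the capped end of a messenger RNA, while eIF4E-binding proteins compete with the scaffold for the cap-binding protein and are switched off by mTOR. After each round eIF2B recharges eIF2 with GTP, and phosphorylation of the eIF2 alpha subunit turns eIF2 into an inhibitor of eIF2B. During elongation eEF1A delivers aminoacyl-tRNA, the eEF1B subunits recharge eEF1A, and eEF2 moves the ribosome by one codon. Activated DCs and T cells are known to raise protein synthesis, which makes this machinery a common readout of their state.

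Total read counts were 14056428 in X-Ray+O-IMDQ DCs, 23797357 in PBS DCs, 18463944 in X-Ray+O-IMDQ T cells and 18649824 in PBS T cells. Where a gene has no counts, its level may still be as high as 3 counts, that is 0.213, 0.126, 0.162 and 0.161 CPM (counts per 1e6) in that order of libraries. Of the 10 T cell markers examined, 10 had at least 20 counts in X-Ray+O-IMDQ T cells, 9 in PBS T cells, 3 in X-Ray+O-IMDQ DCs and 6 in PBS DCs. Their summed level was 16179 CPM in X-Ray+O-IMDQ T cells and 15002 CPM in PBS T cells. In X-Ray+O-IMDQ DCs it was 95.7 CPM and in PBS DCs 125 CPM. The 3 markers with at least 20 counts in X-Ray+O-IMDQ DCs were Cd3d with 812, Cd5 with 278 and Cd8b1 with 254. Cd3e and Cd4 had 0 counts in both DC libraries, but Cd4 had only 252 in X-Ray+O-IMDQ T cells. The summed level of 12 conventional DC markers was 8483 CPM in X-Ray+O-IMDQ DCs and 61018 CPM in PBS DCs, with Batf3 at 0 counts in X-Ray+O-IMDQ DCs and 479 in PBS DCs. Gene by gene, 4 of these 12 were higher after X-Ray+O-IMDQ, 5 were lower and 3 were neither (median log2 ratio 0.29), by the rule for calls given with the first comparison. Clec9a was among the higher ones, with 952 counts in X-Ray+O-IMDQ DCs and 154 in PBS DCs. The summed level of 9 macrophage markers, all with at least 20 counts in both DC libraries, was 1762 CPM in X-Ray+O-IMDQ DCs and 7744 CPM in PBS DCs, and of these 0 were higher, 5 lower and 4 neither. Cytosolic ribosomal protein genes took 10.3% of counts in X-Ray+O-IMDQ DCs, 4.004% in PBS DCs, 6.28% in X-Ray+O-IMDQ T cells and 9.12% in PBS T cells. The DC libraries thus differed in marker levels, ribosomal share and depth as well as in treatment, and the part of these differences in the results was not tested. In such bulk libraries, fewer cells of a type and less RNA per cell cannot be told apart.

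In DCs members were called in both directions after X-Ray+O-IMDQ: 13 of 59 members with at least 20 counts in either DC library were higher, 19 were lower and 27 were neither. A gene was called when its counts, scaled by the trimmed mean of M values (TMM), were at least 2-fold apart and when the 95% interval of the log2 ratio did not span 0. This interval is an exact conditional binomial (Clopper-Pearson) interval that covers counting error only, and with 1 library per group there is no replicate error and no p-value. By the same rule 30.2% of all 10316 genes tested in DCs were higher and 41.8% were lower, so that 72.0% were called in either direction, against 54.2% of the members. The members' median log2 ratio was -0.34, beside -0.36 for all genes tested. Among well-counted genes, with a mean of at least 1000 counts in the DC libraries, the shares called were close, at 55.0% of 40 members and 58.8% of 2435 genes.

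In T cells few members were called. Of 61 members, 2 were higher after X-Ray+O-IMDQ, 3 were lower and 56 were neither. Of all 11058 genes tested in T cells, 18.3% were higher and 25.4% were lower, and 43.7% were called in either direction, beside 8.20% of the members. With a mean of at least 1000 counts, 4.65% of 43 members and 11.7% of 3112 genes were called. The members' median log2 ratio was 0.02, beside -0.07 for all genes tested.

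**Figure D1:**
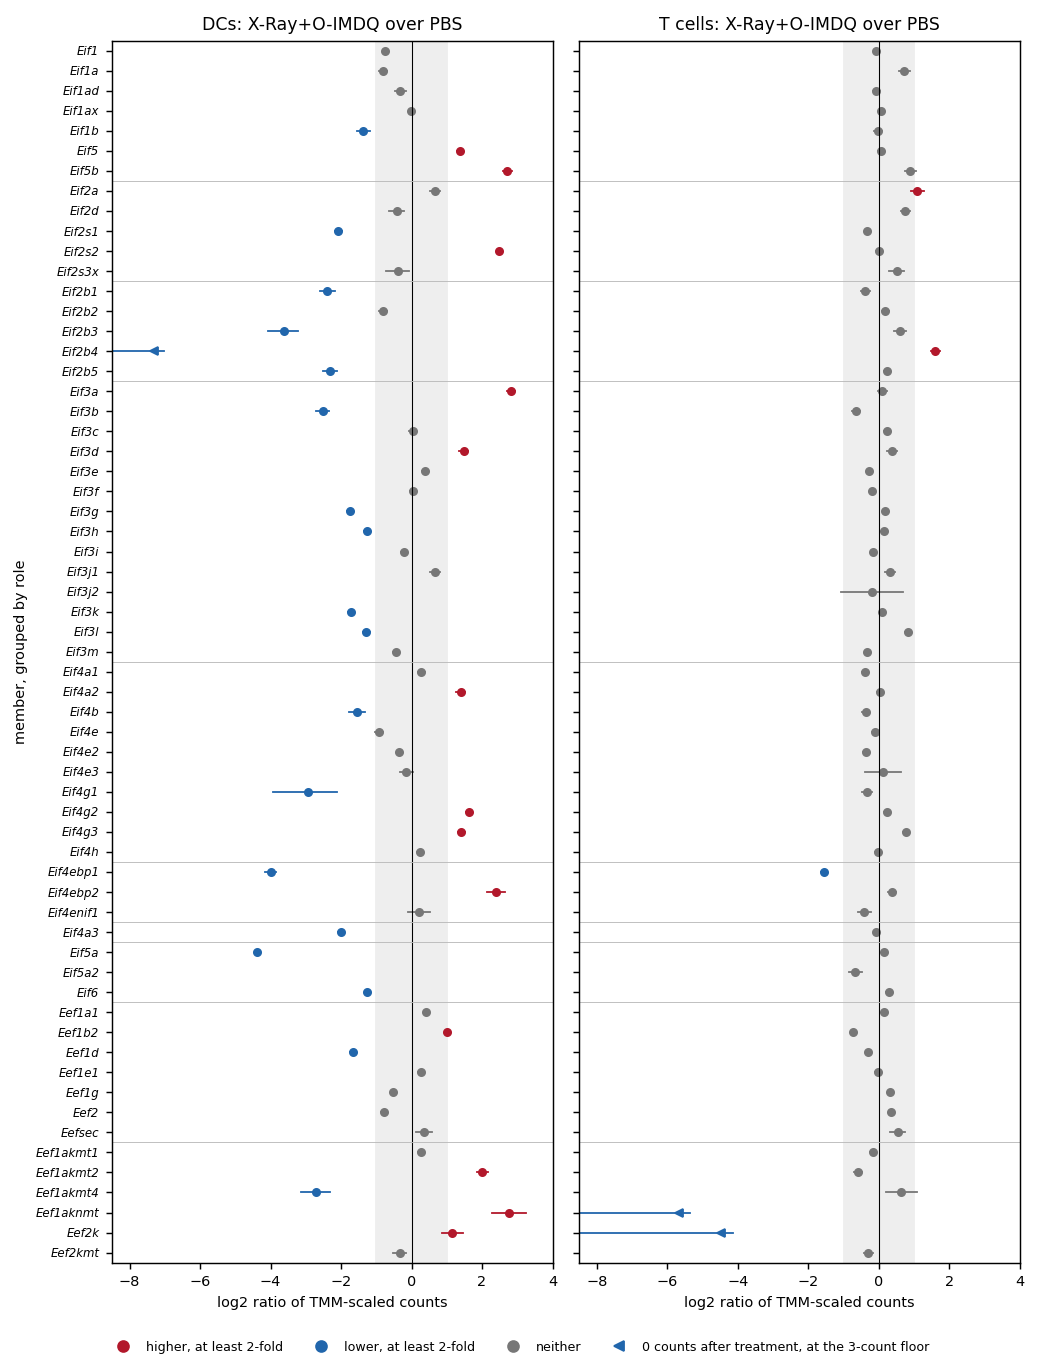
Log2 ratio of TMM-scaled counts, X-Ray+O-IMDQ over PBS, for each member (rows, grouped by role) in DCs (left) and T cells (right), with 1 library per group. Lines are 95% counting intervals, the grey band is less than 2-fold, and triangles are members with 0 counts after treatment set at the 3-count floor. In DCs 32 of 59 members are called, and in T cells 5 of 61.

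Added up, the members took 0.759% of all counts in X-Ray+O-IMDQ DCs and 1.21% in PBS DCs, against 1.58% in X-Ray+O-IMDQ T cells and 1.52% in PBS T cells. Their summed TMM-scaled level was 7744 CPM in X-Ray+O-IMDQ DCs and 11877 CPM in PBS DCs, and 15624 CPM in X-Ray+O-IMDQ T cells and 15306 CPM in PBS T cells. Eif5a alone supplied 2.08% of the family's counts in X-Ray+O-IMDQ DCs and 28.4% in PBS DCs. Without Eif5a, the family took 0.743% of counts in X-Ray+O-IMDQ DCs and 0.868% in PBS DCs.

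**Figure D2:**
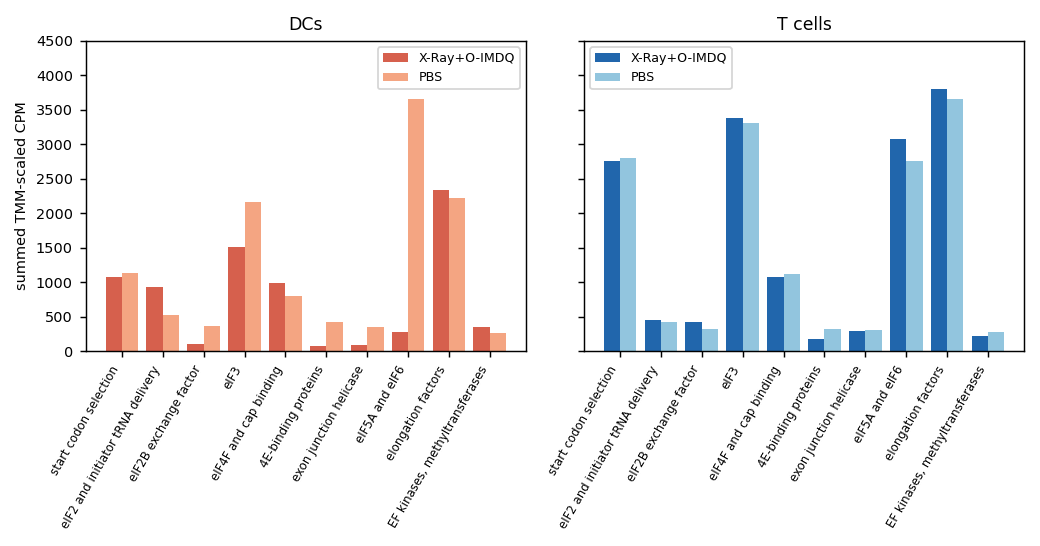
Summed TMM-scaled CPM of the members of each of 10 role groups in X-Ray+O-IMDQ and PBS libraries of DCs (left) and T cells (right). In DCs the group of Eif5a and Eif6 holds 279 CPM after X-Ray+O-IMDQ and 3652 CPM after PBS, and elongation factors hold 2339 CPM after X-Ray+O-IMDQ and 2216 CPM after PBS.

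Eif5a, on chr11:69807540-69812784 (GRCm39, minus strand), showed the largest difference in CPM between the DC libraries in the family. It encodes a factor that carries the modified lysine hypusine and helps the ribosome through stretches that are hard to translate and through termination. Eif5a had 2217 counts in X-Ray+O-IMDQ DCs against 81889 in PBS DCs, or 161 CPM against 3371 CPM, which is 20.9-fold lower (log2 ratio -4.39, interval -4.45 to -4.33). Corrected for gene length, its log2 ratio there was -2.93. In T cells it had 53283 counts after X-Ray+O-IMDQ and 47342 after PBS, a log2 ratio of 0.16. Expressed per length, as FPKM (fragments per kilobase of gene and per 1e6 fragments), Eif5a was the highest member in PBS DCs with 1448 FPKM and rank 7 of 61 in X-Ray+O-IMDQ DCs with 66.4 FPKM. Its paralogue Eif5a2 had 0 counts in both DC libraries, 381 counts in X-Ray+O-IMDQ T cells and 599 in PBS T cells.

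Eif6, which keeps the large ribosomal subunit from joining too early, also fell in DCs. It had 1625 counts in X-Ray+O-IMDQ DCs and 6829 in PBS DCs (log2 ratio -1.25, interval -1.33 to -1.17), and 3617 in X-Ray+O-IMDQ T cells and 2959 in PBS T cells (log2 ratio 0.28). The call of Eif6 in DCs was lost with centring on all genes, where the log2 ratio was -0.90, and with a correction for gene length, where it was -0.19.

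**Figure D3:**
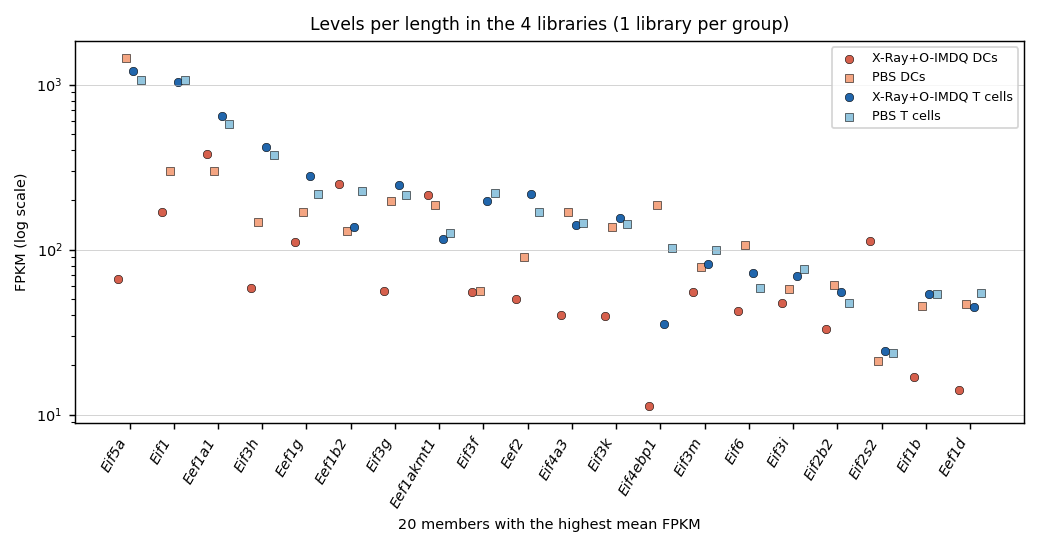
FPKM on a log scale in the 4 libraries (1 library per group) for the 20 members with the highest mean FPKM over all libraries. Eif5a lies at 66.4 in X-Ray+O-IMDQ DCs and at 1448, 1214 and 1068 in PBS DCs, X-Ray+O-IMDQ T cells and PBS T cells.

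The initiator tRNA carrier eIF2 has 3 subunits, and these did not move together in DCs. Eif2s1 encodes the alpha subunit, the one that stress kinases phosphorylate. It had 1038 counts in X-Ray+O-IMDQ DCs against 7717 in PBS DCs (log2 ratio -2.08, interval -2.17 to -1.98). Eif2s2, which encodes the beta subunit, had 10699 counts in X-Ray+O-IMDQ DCs against 3403 in PBS DCs (log2 ratio 2.47, interval 2.42 to 2.53). The alpha subunit's message thus fell and the beta subunit's rose, while Eif2s3x, for the gamma subunit, was not called at 115 counts in X-Ray+O-IMDQ DCs and 267 in PBS DCs. Per length, the level of Eif2s2 was 7.55 times that of Eif2s1 in X-Ray+O-IMDQ DCs and 0.323 times in PBS DCs. In T cells this ratio was 0.802 after X-Ray+O-IMDQ and 0.639 after PBS, and none of these subunits was called. X-Ray+O-IMDQ T cells had 2761 counts of Eif2s1, 3020 of Eif2s2 and 482 of Eif2s3x, and PBS T cells had 3425, 2986 and 337.

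Eif2a and Eif2d encode proteins outside the eIF2 complex that can also deliver initiator tRNA. Eif2a was 1 of the 2 members that rose in T cells, with 761 counts after X-Ray+O-IMDQ and 354 after PBS (log2 ratio 1.09, interval 0.91 to 1.28). This call was narrow, since with upper-quartile scaling its log2 ratio was 0.99. In DCs Eif2a had 695 counts after X-Ray+O-IMDQ and 774 after PBS (log2 ratio 0.66), which passed 2-fold with centring (1.02) and with the length correction (1.06). Eif2a overlaps Serp1 on the opposite strand by 72 bases, and no source used here says whether the counting used strand. Eif2d was called in neither cell type.

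Of the 5 subunits of eIF2B, the factor that recharges eIF2, 4 fell in DCs and none rose, where 41.8% of all genes tested fell and 72.0% were called in either direction. Their summed level was 102 CPM in X-Ray+O-IMDQ DCs and 366 CPM in PBS DCs, with a median log2 ratio of -2.39. Eif2b4, the delta subunit, had 0 counts in X-Ray+O-IMDQ DCs against 846 in PBS DCs. This is 159.8-fold lower when the 0 is set to the floor of 3 counts in that library, and the limit of the interval closest to 0 is 129.7-fold. Eif2b3, the gamma subunit, had 49 counts in X-Ray+O-IMDQ DCs against 1066 in PBS DCs (log2 ratio -3.62, interval -4.07 to -3.21). Eif2b5, the epsilon subunit that carries the exchange activity, and Eif2b1, the alpha subunit, fell by similar amounts. Eif2b5 had 258 counts in X-Ray+O-IMDQ DCs and 2265 in PBS DCs (log2 ratio -2.31), and Eif2b1 had 215 in X-Ray+O-IMDQ DCs and 1984 in PBS DCs (log2 ratio -2.39). Eif2b2, the beta subunit, was not called at 876 counts in X-Ray+O-IMDQ DCs and 2729 in PBS DCs (log2 ratio -0.82). With the correction for gene length the 4 calls remained. The log2 ratios were then -1.32 for Eif2b1, -1.25 for Eif2b5, -3.37 for Eif2b3 and -6.255 at the floor for Eif2b4.

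In T cells Eif2b4 went the other way, with 1679 counts after X-Ray+O-IMDQ and 546 after PBS (log2 ratio 1.61, interval 1.47 to 1.75). The other 4 eIF2B subunits were not called there. X-Ray+O-IMDQ T cells had 2642 counts of Eif2b5, 1916 of Eif2b2, 845 of Eif2b1 and 697 of Eif2b3, and PBS T cells had 2236, 1672, 1095 and 456. Eif2b4 overlaps Snx17, on the opposite strand, by 204 bases, and Snx17 had 387 counts in X-Ray+O-IMDQ DCs and 2463 in PBS DCs.

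Because 4 of the 5 eIF2B messages fell in DCs, the starts of the 4 subunit genes with a promoter in the RefSeq table (GRCm38.p6), Eif2b2 among them, are shown, from 40 bases before to 20 bases after the annotated start, 5′ to 3′ on the gene's strand. The build differs from that of the gene coordinates above. Capitals mark a pyrimidine tract, defined as C followed by at least 4 bases that are each C or T, starting within 10 bases of the annotated start. A run that begins further upstream was also counted, from its first C within this limit. The windows lie at chr5:124579112-124579171 (minus strand) for Eif2b1, chr12:85219441-85219500 (plus) for Eif2b2, chr5:31193120-31193179 (minus) for Eif2b4 and chr16:20498777-20498836 (plus) for Eif2b5.
Eif2b1: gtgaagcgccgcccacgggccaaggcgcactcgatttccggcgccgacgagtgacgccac
Eif2b2: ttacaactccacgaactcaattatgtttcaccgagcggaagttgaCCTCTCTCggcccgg
Eif2b4: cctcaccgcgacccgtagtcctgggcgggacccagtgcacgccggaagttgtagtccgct
Eif2b5: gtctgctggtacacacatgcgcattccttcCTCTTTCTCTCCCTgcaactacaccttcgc
A tract was found in Eif2b2, which was not called in DCs, and in Eif2b5, which fell, and in neither Eif2b1 nor Eif2b4, which also fell. The capitals of Eif2b5 are part of a longer pyrimidine run that begins more than 10 bases before the annotated start.

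Start codon selection is the work of Eif1 and the Eif1a genes, which keep the scanning ribosome open, of Eif5, which triggers GTP hydrolysis by eIF2, and of Eif5b, which joins the ribosomal subunits. In DCs Eif5b rose with 2582 counts after X-Ray+O-IMDQ against 692 after PBS (log2 ratio 2.72, interval 2.60 to 2.84), and Eif5 rose with 2777 after X-Ray+O-IMDQ against 1882 after PBS (log2 ratio 1.38, interval 1.30 to 1.47). Eif1b fell, with 269 counts in X-Ray+O-IMDQ DCs and 1223 in PBS DCs (log2 ratio -1.37, interval -1.56 to -1.17). Reads of Eif1b and its close paralogue Eif1 may be divided between them in the counting, as may those of Eif1a and Eif1ax. Eif1 was not called in DCs, with 4977 counts after X-Ray+O-IMDQ and 14862 after PBS (log2 ratio -0.76), and neither was Eif1ax, with 3001 after X-Ray+O-IMDQ and 5371 after PBS (log2 ratio -0.02).

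No gene of start codon selection was called in T cells, where 43.7% of all genes tested were called. Among genes with a mean of at least 1000 counts in the T cell libraries this share was 11.7%. Eif1, the member with the highest FPKM in PBS T cells, had 40401 counts in X-Ray+O-IMDQ T cells and 41959 in PBS T cells (log2 ratio -0.07). Eif5b was nearest to a call, with 1007 counts in X-Ray+O-IMDQ T cells and 537 in PBS T cells (log2 ratio 0.89, interval 0.74 to 1.05).

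The eIF3 complex is the largest initiation factor and bridges the small subunit and eIF4F. Of 13 subunit genes tested in DCs, Eif3a and Eif3d rose, Eif3b, Eif3g, Eif3h, Eif3k and Eif3l fell, and 6 were not called. Called were thus 53.8% of them, beside 72.0% of all genes tested in DCs (30.2% higher, 41.8% lower). For genes with a mean of at least 1000 counts in the DC libraries the share was 58.8%. Eif3a, a scaffold of the complex, had 2864 counts in X-Ray+O-IMDQ DCs against 719 in PBS DCs (log2 ratio 2.81, interval 2.69 to 2.93). Eif3b, its partner in the core, had 298 counts in X-Ray+O-IMDQ DCs against 3032 in PBS DCs (log2 ratio -2.53, interval -2.70 to -2.36). These core partners were therefore the extremes of the complex in opposite directions. X-Ray+O-IMDQ DCs had 1327 counts of Eif3d against 838 in PBS DCs (log2 ratio 1.48). Eif3g had 1565 counts in X-Ray+O-IMDQ DCs against 9322 in PBS DCs (log2 ratio -1.76), and Eif3h had 1330 in X-Ray+O-IMDQ DCs against 5660 in PBS DCs (log2 ratio -1.27).

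Among the eIF3 subunits not called in DCs, Eif3f had 2247 counts after X-Ray+O-IMDQ and 3859 after PBS (log2 ratio 0.04), and the ratios of the other 5 lay between -0.44 and 0.66. The length correction left Eif3b as the only eIF3 gene called lower (log2 ratio -1.52), since the calls of Eif3g, Eif3h, Eif3k and Eif3l were lost at log2 ratios of -0.59, -0.14, -0.67 and -0.61, and Eif3f then passed 2-fold upward at 1.22. With centring on all genes the calls of Eif3h (log2 ratio -0.91) and Eif3l (-0.93) were also lost. In T cells all 14 eIF3 genes fell short of a call, with log2 ratios between -0.65 for Eif3b and 0.82 for Eif3l. The share called over all genes tested there was 43.7%, and 11.7% over genes with a mean of at least 1000 counts. The 14 genes summed to 3375 CPM in X-Ray+O-IMDQ T cells and 3313 CPM in PBS T cells. The 13 tested in DCs summed to 1512 CPM in X-Ray+O-IMDQ DCs and 2159 CPM in PBS DCs.

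Of 10 members of the cap-binding complex, Eif4a2, Eif4g2 and Eif4g3 rose in DCs, Eif4b and Eif4g1 fell and 5 were not called. Of all genes tested in DCs 72.0% were called, and 58.8% of those with a mean of at least 1000 counts. Eif4g1 and Eif4g3 encode alternative scaffolds, and Eif4g2 encodes a related protein without the binding site for eIF4E. Eif4g1 had 12 counts in X-Ray+O-IMDQ DCs against 164 in PBS DCs (log2 ratio -2.95, interval -3.94 to -2.11). Eif4g3 had 1816 counts in X-Ray+O-IMDQ DCs against 1207 in PBS DCs (log2 ratio 1.41, interval 1.30 to 1.51), and Eif4g2 had 3022 in X-Ray+O-IMDQ DCs against 1733 in PBS DCs (log2 ratio 1.62, interval 1.54 to 1.71). The scaffold with the fewest counts in DCs fell while the others rose, and the call of Eif4g3 was lost with the length correction (log2 ratio 0.81).

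Of the helicases of the complex, Eif4a2 rose in DCs, with 1295 counts after X-Ray+O-IMDQ and 868 after PBS (log2 ratio 1.40), while Eif4a1 was not called at 1642 counts after X-Ray+O-IMDQ and 2393 after PBS (log2 ratio 0.28). Eif4b, a helicase cofactor, fell, with 186 counts in X-Ray+O-IMDQ DCs and 961 in PBS DCs (log2 ratio -1.55). The cap-binding Eif4e lay just under the threshold, with 909 counts in X-Ray+O-IMDQ DCs and 3034 in PBS DCs (log2 ratio -0.92, interval -1.03 to -0.81). Eif4e2, an inhibitory cap-binding relative, had 2206 counts in X-Ray+O-IMDQ DCs and 4978 in PBS DCs (log2 ratio -0.35), and the cofactor Eif4h had 2163 in X-Ray+O-IMDQ DCs and 3235 in PBS DCs (log2 ratio 0.24). In T cells 43.7% of all genes tested were called, and 11.7% of those with a mean of at least 1000 counts. None of the 10 members was called there. Their log2 ratios lay between -0.40 for Eif4a1 and 0.77 for Eif4g3. Eif4g1 had 780 counts in X-Ray+O-IMDQ T cells and 972 in PBS T cells, and Eif4e had 1667 in X-Ray+O-IMDQ T cells and 1778 in PBS T cells.

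Eif4ebp1, which encodes the mTOR-controlled repressor of eIF4E, was the only member that fell in both cell types by this rule. It had 350 counts in X-Ray+O-IMDQ DCs against 9795 in PBS DCs (log2 ratio -3.99, interval -4.15 to -3.83), or 15.9-fold lower. Corrected for gene length, its log2 ratio there was -2.53. In T cells it had 1435 counts after X-Ray+O-IMDQ against 4208 after PBS (log2 ratio -1.56, interval -1.65 to -1.48), or 2.96-fold lower. Its paralogue Eif4ebp2 rose in DCs, with 492 counts after X-Ray+O-IMDQ against 166 after PBS (log2 ratio 2.39, interval 2.13 to 2.65). In T cells Eif4ebp2 was not called, at 1424 counts after X-Ray+O-IMDQ and 1081 after PBS (log2 ratio 0.38).

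Set against the cap-binding protein itself, the FPKM of Eif4ebp1 was 1.05 times that of Eif4e in X-Ray+O-IMDQ DCs and 8.83 times in PBS DCs, and 2.36 times in X-Ray+O-IMDQ T cells and 6.48 times in PBS T cells. The FPKM of Eif4ebp1 was 1.87 times that of Eif4ebp2 in X-Ray+O-IMDQ DCs and 155 times in PBS DCs. Eif4enif1, which shuttles eIF4E into the nucleus, was not called in either cell type, with 152 counts in X-Ray+O-IMDQ DCs, 231 in PBS DCs, 411 in X-Ray+O-IMDQ T cells and 540 in PBS T cells. Eif4enif1 overlaps the opposite-strand gene Drg1, which had 153 counts in X-Ray+O-IMDQ DCs and 5135 in PBS DCs.

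Eif4a3, a relative of the eIF4A helicases that sits in the exon junction complex, fell in DCs. It had 1205 counts after X-Ray+O-IMDQ against 8571 after PBS (log2 ratio -2.01, interval -2.10 to -1.92), and the call was lost with the length correction (log2 ratio -0.55). In T cells it had 5523 counts after X-Ray+O-IMDQ and 5760 after PBS (log2 ratio -0.07).

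The genes grouped by symbol as elongation factors, Eef1e1 among them, summed to like totals in the DC libraries. They held 2339 CPM after X-Ray+O-IMDQ and 2216 CPM after PBS, and 5 of the 7 tested were not called. The 28.6% that were called stand beside 72.0% of all genes tested in DCs, and 58.8% with a mean of at least 1000 counts. Eef1a1, which delivers aminoacyl-tRNA, had 13315 counts in X-Ray+O-IMDQ DCs and 17822 in PBS DCs (log2 ratio 0.40, interval 0.37 to 0.43). Eef2, the translocase, had 2340 counts in X-Ray+O-IMDQ DCs and 7165 in PBS DCs (log2 ratio -0.80, interval -0.86 to -0.73). Eef1a1 was the highest member per length in X-Ray+O-IMDQ DCs, at 380 FPKM, against 300.4 FPKM and rank 2 in PBS DCs, and its log2 ratio passed 2-fold with the length correction (1.46). Of the eEF1B subunits that recharge eEF1A, Eef1b2 passed 2-fold upward, Eef1d passed it downward and Eef1g was not called. Eef1b2 had 8891 counts in X-Ray+O-IMDQ DCs against 7799 in PBS DCs (log2 ratio 1.01, interval 0.96 to 1.05), and its call was lost with DESeq2 size factors (0.98) and with total-count CPM (0.95). Eef1d had 1290 counts in X-Ray+O-IMDQ DCs against 7217 in PBS DCs (log2 ratio -1.66), and Eef1g had 4080 in X-Ray+O-IMDQ DCs against 10480 in PBS DCs (log2 ratio -0.54).

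In T cells none of the 7 genes grouped as elongation factors was called, beside 43.7% of all genes tested. Of genes with a mean of at least 1000 counts there, 11.7% were called. Eef1a1 had 29755 counts after X-Ray+O-IMDQ and 26820 after PBS (log2 ratio 0.14). Eef2 had 13436 counts after X-Ray+O-IMDQ and 10454 after PBS (log2 ratio 0.35), and Eef1g had 13367 after X-Ray+O-IMDQ and 10615 after PBS (log2 ratio 0.32). Eef1b2 had the lowest ratio of the group, with 6436 counts in X-Ray+O-IMDQ T cells and 10682 in PBS T cells (log2 ratio -0.74, interval -0.79 to -0.70). The group summed to 3801 CPM in X-Ray+O-IMDQ T cells and 3656 CPM in PBS T cells.

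Several factors of this family belong to the TOP messages, whose capped end begins with a C and a run of pyrimidines and whose translation depends on mTOR. Of 9 known TOP messages in the family (Eef1a1, Eef1b2, Eef1d, Eef1g, Eef2, Eif3e, Eif3f, Eif3h and Eif4b), 1 rose in DCs, 3 fell and 5 were not called, with a median log2 ratio of -0.54. Called were thus 44.4% of them, beside 72.0% of all genes tested in DCs, whose median log2 ratio was -0.36. The share called was 58.8% for genes with a mean of at least 1000 counts. In T cells 43.7% of all genes tested were called, with a median log2 ratio of -0.07. With a mean of at least 1000 counts the share was 11.7%. Of the 9 TOP messages 0 were called in T cells, and their median log2 ratio was -0.19. The starts of the 5 with a RefSeq promoter (GRCm38.p6) are shown in the same window and with the same tract in capitals, to set the annotated start beside the message class. They lie at chr9:78481705-78481764 (minus strand) for Eef1a1, chr1:63176791-63176850 (plus) for Eef1b2, chr10:81176591-81176650 (plus) for Eef2, chr7:108934375-108934434 (plus) for Eif3f and chr15:102073733-102073792 (plus) for Eif4b.
Eef1a1: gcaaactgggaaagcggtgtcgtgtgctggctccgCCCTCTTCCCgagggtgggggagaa
Eef1b2: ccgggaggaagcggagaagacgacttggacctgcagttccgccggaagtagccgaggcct
Eef2: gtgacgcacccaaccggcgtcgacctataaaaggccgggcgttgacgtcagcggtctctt
Eif3f: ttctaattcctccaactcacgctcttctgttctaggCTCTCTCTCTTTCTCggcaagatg
Eif4b: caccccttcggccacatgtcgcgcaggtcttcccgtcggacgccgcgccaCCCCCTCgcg
The tract was found in Eef1a1, Eif3f and Eif4b, of which Eif4b fell in DCs, and in neither Eef1b2 nor Eef2.

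Over the whole table, a tract by this definition lay near the annotated start in 27.4% of 62 promoters of 48 matched members, beside 30.7% of all 32851 promoters. The sequence CACGTG, which reads the same on both strands, lay in the 300-base promoter window of 16 member promoters, or 25.8%, beside 7.15% of all promoters. Of the 14 members with CACGTG in at least 1 promoter, 3 rose and 5 fell in DCs, and of the 34 without it 9 rose and 9 fell. Of all genes tested in DCs, 30.2% rose and 41.8% fell. Whether the sequence bears on the calls was not tested. These matches describe the annotated windows only, since annotated starts need not be the starts used in these cells.

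Enzymes that modify elongation factors moved in both directions. Eef2k, the kinase that phosphorylates and stops eEF2, had 215 counts in X-Ray+O-IMDQ DCs against 170 in PBS DCs (log2 ratio 1.16, interval 0.86 to 1.46), and 0 counts in X-Ray+O-IMDQ T cells against 66 in PBS T cells. Eef2k was thus called higher in DCs and lower in T cells, there 22.2-fold at the floor, with an interval limit closest to 0 of 17.6-fold. Eef1aknmt, a methyltransferase of eEF1A, had 184 counts in X-Ray+O-IMDQ DCs against 48 in PBS DCs (log2 ratio 2.76, interval 2.29 to 3.25). It had 0 counts in X-Ray+O-IMDQ T cells against 151 in PBS T cells, 50.8-fold lower at the floor, with an interval limit closest to 0 of 40.8-fold. Both genes are among the least abundant members per length, and both of their calls in T cells rest on a library at 0.

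Among the other methyltransferases, Eef1akmt2 rose in DCs, with 1223 counts after X-Ray+O-IMDQ against 536 after PBS (log2 ratio 2.01), and Eef1akmt4 fell, with 53 after X-Ray+O-IMDQ against 614 after PBS (log2 ratio -2.71). Neither was called in T cells, where Eef1akmt2 had 1126 counts after X-Ray+O-IMDQ and 1671 after PBS, and Eef1akmt4 had 116 after X-Ray+O-IMDQ and 74 after PBS. Eef1akmt4 overlaps Alg3, on the opposite strand, by 143 bases. Alg3 had 0 counts in X-Ray+O-IMDQ DCs and 1139 in PBS DCs, and 878 in X-Ray+O-IMDQ T cells and 140 in PBS T cells. Eef1akmt1, the most abundant of these enzymes, had 2835 counts in X-Ray+O-IMDQ DCs and 4176 in PBS DCs (log2 ratio 0.26), and 2029 in X-Ray+O-IMDQ T cells and 2238 in PBS T cells (log2 ratio -0.15). Eef2kmt, which methylates eEF2, had 376 counts in X-Ray+O-IMDQ DCs and 837 in PBS DCs (log2 ratio -0.34), and 808 in X-Ray+O-IMDQ T cells and 981 in PBS T cells (log2 ratio -0.29).

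Across the 59 members tested in both cell types, 28 were called in DCs and not in T cells. Of these, 11 were higher (18.6% of the 59) and 17 were lower (28.8%) in X-Ray+O-IMDQ DCs. Among all genes tested in both, 16.4% were higher and 24.9% were lower in DCs without a call in T cells. A further 26 members, 44.1%, were called in neither cell type, compared with 20.7% of the 9388 genes tested in both. These shares are not matched for read counts. Only Eif2a was called in T cells and not in DCs. Eif4ebp1 was lower in both, Eef1aknmt and Eef2k were higher in DCs and lower in T cells, and Eif2b4 was lower in DCs and higher in T cells. The difference between the cell types was not tested, since each ratio rests on 2 libraries.

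**Figure D4:**
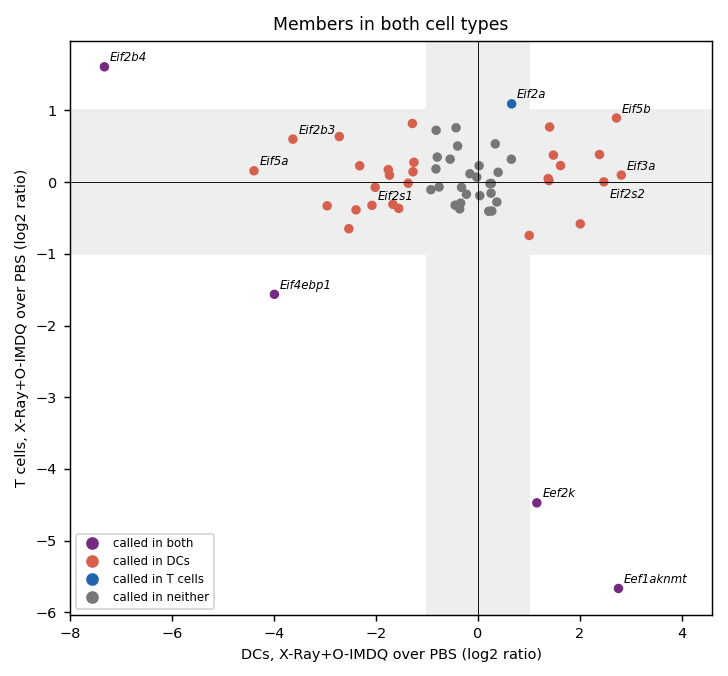
Log2 ratio of X-Ray+O-IMDQ over PBS in DCs (x axis) and in T cells (y axis) for the 59 members tested in both, with 1 library per group and grey bands of less than 2-fold. Eif4ebp1 is the only point past 2-fold downward on both axes (-3.99 and -1.56), and 26 members lie inside both bands or were not called in either.

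The order of members by FPKM was close between the T cell libraries and less so between the DC libraries. Spearman's rho over the 61 members was 0.75 between X-Ray+O-IMDQ and PBS DCs and 0.97 between X-Ray+O-IMDQ and PBS T cells. It was 0.80 between X-Ray+O-IMDQ DCs and X-Ray+O-IMDQ T cells, and 0.91 between PBS DCs and PBS T cells. These values describe levels of the same genes, which share their lengths in every library.

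Complete loss of counts was seen for few members. Of the members with at least 100 counts in PBS DCs, 1 of 58 (Eif2b4) had 0 counts in X-Ray+O-IMDQ DCs, or 1.72%, beside 942 of 7856 genes, or 12.0%. In T cells 1 of 57 members (Eef1aknmt) and 342 of 8606 genes, 3.97%, had 0 counts after X-Ray+O-IMDQ with at least 100 after PBS. Members and all genes were not matched for counts above this minimum, so these shares do not compare genes of like abundance.

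Gene length went along with the ratio in DCs. Among the members the median log2 ratio in 4 classes of listed length, cut so that all genes tested fall equally into them, was, shortest to longest, -1.26, -0.27, 0.24 and 1.39 over 22, 12, 15 and 10 members, beside -0.93, -0.74, -0.27 and 0.37 for all genes tested. Eif5a, Eif4ebp1 and Eif2b4, with listed lengths of 2377, 2196 and 2599 bases, lay in the shortest class, and Eif3a and Eif5b, with 8731 and 9753 bases, in the longest. Spearman's rho of length and log2 ratio was 0.46 over the 59 members and 0.14 over all genes in DCs, and 0.05 and 0.03 in T cells. With each ratio set against genes of like length, 18 members were higher and 13 were lower in DCs, beside 13 and 19 without this step, and the median log2 ratio was 0.45 in place of -0.34. Centring on the median of all genes gave 15 higher and 16 lower.

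**Figure D5:**
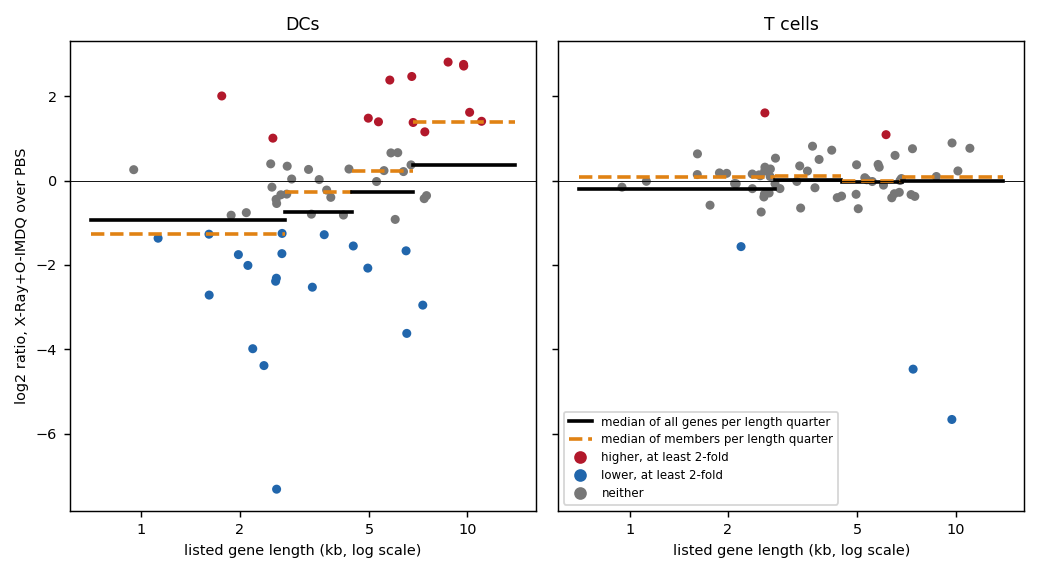
Log2 ratio of X-Ray+O-IMDQ over PBS against listed gene length (log scale) for the members in DCs (left) and T cells (right), with the median of all genes tested (solid) and of the members (dashed) in each of 4 length classes. In DCs the members' medians run from -1.26 in the shortest class to 1.39 in the longest, and in T cells they stay between 0.003 and 0.10.

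Between cell types after PBS, 14 of 61 members were higher in DCs than in T cells, 10 were lower and 37 were neither, while 25.6% of 11364 genes tested were higher and 34.8% were lower, 60.3% being called in either direction. Eif4e3, a cap-binding relative, had 691 counts in PBS DCs against 64 in PBS T cells (log2 ratio 3.61, interval 3.24 to 4.002). Eif5a2 had 0 counts in PBS DCs against 599 in PBS T cells, and Eif4ebp2 had 166 in PBS DCs against 1081 in PBS T cells (log2 ratio -2.53). The split depended on the scaling, since with total-count CPM 4 members were higher and 14 were lower in DCs.

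After X-Ray+O-IMDQ, 12 of 61 members were higher in DCs than in T cells and 19 were lower, while 31.1% of 10606 genes tested were higher and 43.4% were lower, 74.4% being called in either direction. Eif5a had 2217 counts in X-Ray+O-IMDQ DCs against 53283 in X-Ray+O-IMDQ T cells (log2 ratio -3.55), and Eif2s2 had 10699 in X-Ray+O-IMDQ DCs against 3020 in X-Ray+O-IMDQ T cells (log2 ratio 2.86). Eif4e3 was again higher in DCs, with 352 counts in X-Ray+O-IMDQ DCs against 70 in X-Ray+O-IMDQ T cells (log2 ratio 3.37). With total-count CPM 6 members were higher and 27 were lower, and with centring on all genes 20 were higher and 11 were lower. These comparisons reuse the libraries of the treatment comparisons and are not independent of them.

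Genes that act on these factors were taken from lists of known partners. Their counts stand beside 72.0% of all genes tested called in DCs (30.2% higher, 41.8% lower) and 43.7% called in T cells (18.3% higher, 25.4% lower). Of 6 kinases and phosphatases of the eIF2 alpha subunit, 4 rose and 2 fell in DCs, and 3 rose and 3 were not called in T cells. Ppp1r15a, the stress-induced phosphatase subunit, had 2183 counts in X-Ray+O-IMDQ DCs against 8347 in PBS DCs (log2 ratio -1.12), and 11320 in X-Ray+O-IMDQ T cells against 6710 in PBS T cells (log2 ratio 0.74). Eif2ak1 and the interferon-induced Eif2ak2 rose in both cell types. Eif2ak1 had 630 counts in X-Ray+O-IMDQ DCs against 210 in PBS DCs (log2 ratio 2.40) and 421 in X-Ray+O-IMDQ T cells against 25 in PBS T cells (log2 ratio 4.06). Eif2ak2 had 319 counts in X-Ray+O-IMDQ DCs against 109 in PBS DCs (log2 ratio 2.37) and 256 in X-Ray+O-IMDQ T cells against 21 in PBS T cells (log2 ratio 3.59).

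Of 14 genes of the mTOR and MNK input to eIF4E tested in DCs, 2 rose, 6 fell and 6 were not called, and of 13 tested in T cells 2 fell and 11 were not called. Rheb, the GTPase that activates mTOR, was not called in DCs at 6157 counts after X-Ray+O-IMDQ and 6743 after PBS (log2 ratio 0.69). Mtor itself had 0 counts in X-Ray+O-IMDQ DCs against 213 in PBS DCs, and 425 in X-Ray+O-IMDQ T cells against 609 in PBS T cells.

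Of 12 poly(A)-binding and scanning partners, 7 rose, 3 fell and 2 were not called in DCs, while 1 rose, 2 fell and 9 were not called in T cells. Tpt1, a TOP message, had 23885 counts in X-Ray+O-IMDQ DCs against 11695 in PBS DCs (log2 ratio 1.85). Pabpc1, the poly(A)-binding protein that contacts eIF4G, had 4516 counts in X-Ray+O-IMDQ DCs against 2297 in PBS DCs (log2 ratio 1.79), and its inhibitor Paip2 had 425 in X-Ray+O-IMDQ DCs against 4816 in PBS DCs (log2 ratio -2.68). The binding protein's message thus rose and that of its inhibitor fell in DCs, and neither was called in T cells.

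Of 9 enzymes that make hypusine on eIF5A or diphthamide on eEF2, 1 rose, 5 fell and 3 were not called in DCs, and 1 rose, 2 fell and 6 were not called in T cells. Dhps, the first hypusine enzyme, had 76 counts in X-Ray+O-IMDQ DCs against 672 in PBS DCs (log2 ratio -2.33), and Dohh, the second, was not called at 167 counts in X-Ray+O-IMDQ DCs and 355 in PBS DCs (log2 ratio -0.27). Of the mitochondrial translation factors, 1 of 10 rose and 6 fell in DCs, and 5 of 11 rose and 3 fell in T cells. Tufm, the mitochondrial counterpart of eEF1A, had 1479 counts in X-Ray+O-IMDQ T cells against 638 in PBS T cells (log2 ratio 1.20), and was not called in DCs at 394 counts after X-Ray+O-IMDQ and 1049 after PBS (log2 ratio -0.59). Of 4 termination and recycling factors tested, 1 rose and 2 fell in DCs, and 2 fell in T cells.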

How the data were processed

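Per the labels' protocols, BGI extracted total RNA and built and sequenced mRNA libraries. The genome build GRCm39 and the tools R 3.3.1, DESeq2 1.24.0, HISAT2 2.0.4 and RSEM 1.2.12 are named, without their roles, per the submitters' processing notes. The deposited tables, 1 per cell type, hold whole-number read counts per gene, FPKM made by the authors, and a listed gene length. Recomputing FPKM from count, length and column total gave the deposited value within a relative difference of 2.04e-07. The read file that a sample's description names decided which column belongs to it, since titles and descriptions number the samples differently. A further library per cell type, with 4 columns in all, could be tied to no sample and stayed unused. No sample label gives its treatment.

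Counts were scaled by TMM within each pair of libraries (edgeR 4.0.16, R 4.3.3), so a library's CPM differs slightly between comparisons. Each log2 ratio has an exact conditional binomial (Clopper-Pearson) 95% interval (scipy 1.17.1, Python 3.11.15) covering counting error only. A floor of 3 counts replaced a 0, and no ratio was formed where both libraries had 3 counts or fewer. Genes with at least 20 counts in either library of a pair were tested, and a call needed 2-fold and an interval excluding 0. The ratio and the call were checked on simulated data with counting error only. That check covered neither variation between libraries nor the TMM scaling.

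Members and lists were chosen with earlier results of these data known. Counts are given in full for the 10 highest and 10 lowest called members per treatment comparison, ranked by the limit of the interval closest to 0 and reaching 100 counts in a library, the 3 most abundant of each role, and a few fixed core factors. Other genes come from lists of partners, with the most abundant ones named. Eif2ak1, Eif2ak2, Mtor, Paip2, Dhps, Dohh, Eif4a2, Eif4b, Eef1d, Eif4e3, Eif3k, Eif3l, Batf3, Clec9a, Cd3d, Cd3e, Cd4, Cd5, Cd8b1, Drg1, Serp1, Snx17 and Alg3 were named after their values were seen. Alternatives were total-count CPM, size factors of DESeq2 1.42.0, upper-quartile scaling, FPKM as deposited, TMM without ribosomal, mitochondrial and receptor genes, log2(CPM + 1), other count minimums, centring, a gene length correction in 20 bins, and 1.5-fold and 4-fold thresholds.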

Additional observations from a re-analysis of the deposited data

Results flagged for a closer look

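For 3 members the DC library pair and the T cell library pair moved in opposite directions, each past 2-fold, and the difference was not tested, because each group is 1 library. Eef1aknmt had a log2 ratio of X-Ray+O-IMDQ over PBS of 2.76 in DCs and of -5.67 at the 3-count floor in T cells. Eef2k had 1.16 in DCs and -4.47 at the floor in T cells. Eif2b4 had -7.32 at the floor in DCs and 1.61 in T cells. Each of these members has 0 counts in 1 library, with 48 to 184 counts of Eef1aknmt, 66 to 215 counts of Eef2k and 546 to 1679 counts of Eif2b4 in the other 3 libraries. Among all genes tested in both cell types, 7.39% were higher in DCs and lower in T cells and 6.74% were lower in DCs and higher in T cells.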

How the results depend on the processing

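No paired analysis was possible because the PBS and X-Ray+O-IMDQ groups share no replicate number and hold 1 library each. For the same reason no library could be left out. Of the family's counts of calls and medians under the alternatives, 127 values kept within 1.5 times the main count or near the main median and 33 did not. Medians of log2 ratios near 0 changed sign with the setting. For X-Ray+O-IMDQ over PBS in DCs (-0.34 in the report) the median was 0.02 with centring. In T cells (0.02 in the report) it was -0.08 with upper-quartile scaling. For X-Ray+O-IMDQ DCs over X-Ray+O-IMDQ T cells (-0.09 in the report) it was 0.11 with a mean of at least 1000 counts. Further medians that changed sign are given below. Of the 32 members called in DCs, 3 lost the call with centring and 7 with the length correction, and of the 5 called in T cells none did; none of these log2 ratios changed sign under these settings.

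In DCs, X-Ray+O-IMDQ over PBS, a 4-fold threshold left 6 members higher and 11 lower, and the length correction moved the median log2 ratio to 0.45, with more members higher than lower. In T cells 1 member was higher with upper-quartile scaling, 9 with a 1.5-fold threshold, 0 with a 4-fold threshold and 1 with a mean of at least 1000 counts. In T cells 6 were lower with a 1.5-fold threshold, 1 where both libraries needed 20 counts and 1 with a mean of at least 1000 counts, a minimum chosen after seeing the data.

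For PBS DCs over PBS T cells, total-count CPM and the deposited FPKM each gave 4 members higher, fewer than were lower, and a median of -0.24 beside 0.29 in the report, the 1.5-fold threshold gave 22 higher, the 4-fold threshold 3 higher and 3 lower, and the mean of at least 1000 counts 9 higher and 4 lower. For X-Ray+O-IMDQ DCs over X-Ray+O-IMDQ T cells, total-count CPM and FPKM each gave 6 higher and a median of -0.74, centring gave 20 higher, 11 lower and a median of 0.34, and the length correction gave 19 higher, 11 lower and a median of 0.55. There the 1.5-fold threshold gave 19 higher, the 4-fold threshold 6 higher and 7 lower, and the mean of at least 1000 counts 11 lower. Stricter and looser thresholds and count minimums change counts by construction, and for the scalings the cause was not tested.

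Single-library groups limit every value: the intervals hold counting error only, and the X-Ray+O-IMDQ DC library was the shallowest. Near-identical copies of several factors and 16 members that overlap another listed gene, 13 of them on the opposite strand, leave the origin of some reads uncertain.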
